A study of Mus musculus with 4 samples.

Results

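Cytosolic chaperones and heat shock proteins keep other proteins folded. HSP70 proteins hold unfolded stretches, J-domain proteins deliver these clients and stimulate the HSP70 ATPase, and HSP110 and BAG proteins exchange its nucleotide so that the client is released. HSP90 with its co-chaperones acts late, on nearly folded kinases and receptors, and the TRiC/CCT ring encloses and folds actin and tubulin. Many of these genes are induced by heat through HSF1, which binds repeated GAA units, and the proliferative cells of the intestinal crypt also use the constitutive members to fold their newly made proteins.

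The 38 genes described here were taken by name from the counts table, which lists 52459 genes, and all 38 had a row. They comprise 2 heat shock factors, 6 HSP70 proteins, 3 HSP110 exchange factors, 7 J-domain proteins, 3 BAG proteins, 2 HSP90 proteins, 4 HSP90 co-chaperones, 2 small heat shock proteins, the 2 subunits of the mitochondrial chaperonin and 7 TRiC/CCT subunits. The name of the set does not hold for every member, since Hspd1 and Hspe1 encode a chaperonin of the mitochondrial matrix and Hspa13 a microsomal HSP70 relative. Of the 38 genes, 34 passed the filter on low counts and were tested, while Hspa1a, Hspa1b, Hspb1 and Hspb8 did not pass. Hspa2 passed through 1 pool only, ISC_22mth replicate 1, and so through the group in which it was higher.

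The study asked how ageing changes intestinal stem cells (ISCs). ISCs from the small intestine of wild-type (WT) C57/Bl6 mice aged 2 months (ISC_2mth, young) or 22 months (ISC_22mth, old) were sorted with 6 surface markers beside the exclusion of CD31+ and CD45+ cells, and each age had 2 pools of 5 animals. The sort took EPCAM+, CD44high, EPHB2high, CD166+, CD24med and GRP78low cells, and no transgene or treatment entered either group. RNA was amplified over the full length of the transcript, and 1 library stands for each pool, so that differences between animals of a pool were not seen.

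Total counts per pool ranged from 11662654 to 15975698. Mitochondrially encoded genes took between 62.6% and 65.7% of the counts in the young pools and between 72.9% and 73.8% in the old pools, which left 3852178 to 4593004 counts per pool for all other genes. Levels are therefore given as CPM (counts scaled to a common library size) normalized with TMM, a scaling that sets the bulk of genes equal between pools. When the total counts scaled the pools instead, the median of all genes stood at -0.50 on the log2 scale, against 0.00 with TMM, and directions below are to be read relative to the bulk of genes. A count of 3, below which a level cannot be told from 0, amounted to 0.199 to 0.246 normalized CPM, for counting error only. The 10 stem cell markers, Lgr5, Ascl2 and Olfm4 among them, summed to 3172 and 2972 CPM in the young and 2983 and 3236 CPM in the old pools. None passed the test, although 6 of 10 had an unadjusted p under 0.05 in edgeR, where 16.9% of all genes tested had. A log2 fold change above 0 was found for 4 of 10, where 49.5% of all genes had one, and Axin2 was closest to the threshold (-0.46, adjusted p = 0.0511, edgeR quasi-likelihood test). Markers of other cell types were also counted. The 7 Paneth cell markers summed to 936 and 720 CPM in the young and 2074 and 805 CPM in the old pools, and Defa17 and Defa24 passed the test as higher, where 1.63% of all genes did, but neither did in DESeq2 (adjusted p = 0.498 and 0.659) or without ISC_22mth replicate 1 (0.117 and 0.403, edgeR), and Defa24 was also lost with the upper quartile (0.0689), total counts (0.132), at least 10 counts in every library (0.0628) and the correction for GC content and length (0.0757, all edgeR). The 7 enterocyte markers summed to 330 and 457 CPM in the young and 784 and 660 CPM in the old pools, and Fabp1, Fabp2 and Sis passed as higher against the same 1.63%, of which Fabp2 did not in DESeq2 (adjusted p = 0.218). Goblet cell markers summed to 1849 to 2506 CPM, enteroendocrine markers to 38.4 to 144 CPM, tuft cell markers to 3.04 to 8.40 CPM and leukocyte markers to 14.6 to 22.5 CPM. Of these, Itgam (leukocyte) passed as higher, with the pan-leukocyte marker Ptprc at 0, 0, 2 and 0 counts. Dclk1 (tuft) had 4 and 4 counts in the young and 42 and 19 in the old pools and passed the filter through the old pools only, so that its call (adjusted p = 0.0258, edgeR) is no support for a difference. Itgam did not pass in DESeq2 (adjusted p = 0.0744) or, in edgeR, with total counts (0.250) or without ISC_2mth replicate 1 (0.307). The 5 endothelial and stromal markers summed to at most 0.573 CPM, with Cdh5, Col3a1 and Pdgfra at 0 in every pool. The part of these cells in the differences below was not tested, and in pooled RNA fewer cells of a type cannot be told apart from less RNA per cell.

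Sequences upstream of the RefSeq start are shown first for 3 kinds of member, the inducible HSP70 genes with counts at or near 0, the member that passed the test and 4 members with a heat shock element, from RefSeq on GRCm38.p6, where 31 of the 38 genes had a promoter entry (250 bases before to 50 bases after the start). Hspa1a and Hspa1b are the stress-inducible HSP70 genes and had counts at or near 0. The 250 bases upstream of each start follow, on the minus strand of chromosome 17 (chr17:34972157-34972406 and chr17:34959239-34959488). Capitals mark a 2-unit heat shock element (GAANNTTC) and a CCAAT box read on the opposite strand.
Hspa1a: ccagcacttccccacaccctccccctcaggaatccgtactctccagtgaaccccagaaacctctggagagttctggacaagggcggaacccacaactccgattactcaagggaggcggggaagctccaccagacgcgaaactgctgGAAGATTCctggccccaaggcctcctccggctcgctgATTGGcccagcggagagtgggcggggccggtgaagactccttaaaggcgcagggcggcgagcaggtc
Hspa1b: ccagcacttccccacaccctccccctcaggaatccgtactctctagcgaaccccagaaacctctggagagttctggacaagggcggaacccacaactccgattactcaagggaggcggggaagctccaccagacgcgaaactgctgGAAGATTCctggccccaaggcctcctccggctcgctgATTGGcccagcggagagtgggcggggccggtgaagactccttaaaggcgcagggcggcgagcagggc
Of these 250 positions, 247 (98.8%) were identical between the 2 genes.

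Bag2 was the member that passed the test. Its upstream sequence (chr1:33757796-33758000, minus strand, up to the annotated gene) held none of the motifs searched and has no capitals.
Bag2: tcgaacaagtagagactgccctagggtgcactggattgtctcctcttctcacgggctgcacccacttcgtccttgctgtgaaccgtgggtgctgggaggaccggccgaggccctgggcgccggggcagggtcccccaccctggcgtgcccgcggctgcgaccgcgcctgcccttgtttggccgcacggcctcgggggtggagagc

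Windows of 30 bases around the heat shock elements of 4 further members show how the GAA units are arranged, with the units and their spacers in capitals. They lie upstream of the RefSeq starts of Hspe1 (chr1:55088051-55088080, plus strand), Dnajb6 (chr5:29735844-29735873, plus strand), Hsph1 (chr5:149636351-149636380, minus strand) and Cdc37 (chr9:21150086-21150115, minus strand). By the GENCODE annotation, which can place the start elsewhere, the Dnajb6 window lies inside its gene, the Hsph1 window lies mostly inside its gene, and the Hspe1 window lies inside the neighbouring Hspd1.
Hspe1: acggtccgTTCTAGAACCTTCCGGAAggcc
Dnajb6: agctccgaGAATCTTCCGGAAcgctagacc
Hsph1: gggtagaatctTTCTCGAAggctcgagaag
Cdc37: tcggcgggaacTTCCAGAAggcctcaccac

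The 3-unit form GAANNTTCNNGAA, searched on both strands, was found in 198 of 32851 RefSeq promoters (0.603%) and in 6 of the 41 promoters (14.6%) of the 31 members with an entry, those of Hsph1, Dnajb6, Hspd1 and Hspe1. In Hsph1 the 3-unit form lies after the start and the 2-unit form is shown instead. The Hspd1 and Hspe1 starts are 216 bases apart on opposite strands, so that both windows read the same element. The 2-unit forms GAANNTTC and TTCNNGAA, which the 3-unit form contains, were found on either strand in 15.1% of all promoters and in 16 of the 41 (39.0%), which belong to 14 members. The CCAAT box was found in 37.4% of all promoters and in 17 of the 41 (41.5%), and TATAAA in 13.6% of all promoters and in 1 of the 41, that of Stip1. A match describes these letters in this window and is no measurement of binding. The 4 members with the 3-unit form had log2 fold changes of 0.20 (Hsph1), -0.15 (Dnajb6), 0.16 (Hspd1) and 0.18 (Hspe1), and none passed the test.

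Across the set, most measured differences between old and young ISCs were small. Bag2 was the only one of 34 members past an adjusted p of 0.05 and was lower in old ISCs, where 309 of 13692 genes (2.26%) were past it, 1.63% of genes higher and 0.628% lower. Of the 34 members, 26 had a log2 fold change above 0, where 49.5% of all genes tested had, and the median over the members was 0.16. Hspa2 is among the 26, but it passed the filter through 1 old pool only and is no support for a direction. Against 0 the number of members above it was 22 with the upper quartile and 3 with total counts. Relative to the median of all genes it stayed at 26, which a change of scaling can hardly move because it shifts all genes nearly alike. Without ISC_22mth replicate 2 the number above 0 was 20 of 34, and after the correction for GC content and length it was 22. The pools of both ages did not overlap in 16 members that were higher, Hspa2 again among them, and 4 that were lower in the old pools. Of all genes 47.6% did not overlap, 24% of all genes being higher and 23.6% lower. An unadjusted p under 0.05 was found for 8 members, where 16.9% of genes had one. Other settings gave between 0 and 2 called members, apart from total counts. Limma voom called 1 member with quality weights (2.34% of all genes) and 0 without (2.22%), DESeq2 called 0 (1.44%), and the edgeR likelihood ratio test 2 (4.46%). Under the upper quartile (2.12%), TMM without mitochondrial and rRNA-like loci (2.22%), at least 10 counts in every library (2.11%) and a correction for GC content and length (1.33%) 1 member was called each, and without a filter (2.24%) or with a replicate block (4.55%) 2 were. Leaving out ISC_2mth replicate 1 (1.07%) or replicate 2 (2.04%) left 0 called members, leaving out ISC_22mth replicate 1 (4.73%) left 1, and leaving out ISC_22mth replicate 2 (5.05%) gave 2. With total counts 12 members were called, all lower, where 34% of all genes were called. The 95% interval of the age difference lay within 1.5-fold in either direction for 21 of 34 members and within 2-fold for 32. Together the 38 genes took 0.809% and 0.866% of the counts outside the mitochondrial genome in the young pools and 0.797% and 0.911% in the old pools, which overlapped.

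**Figure D1:**
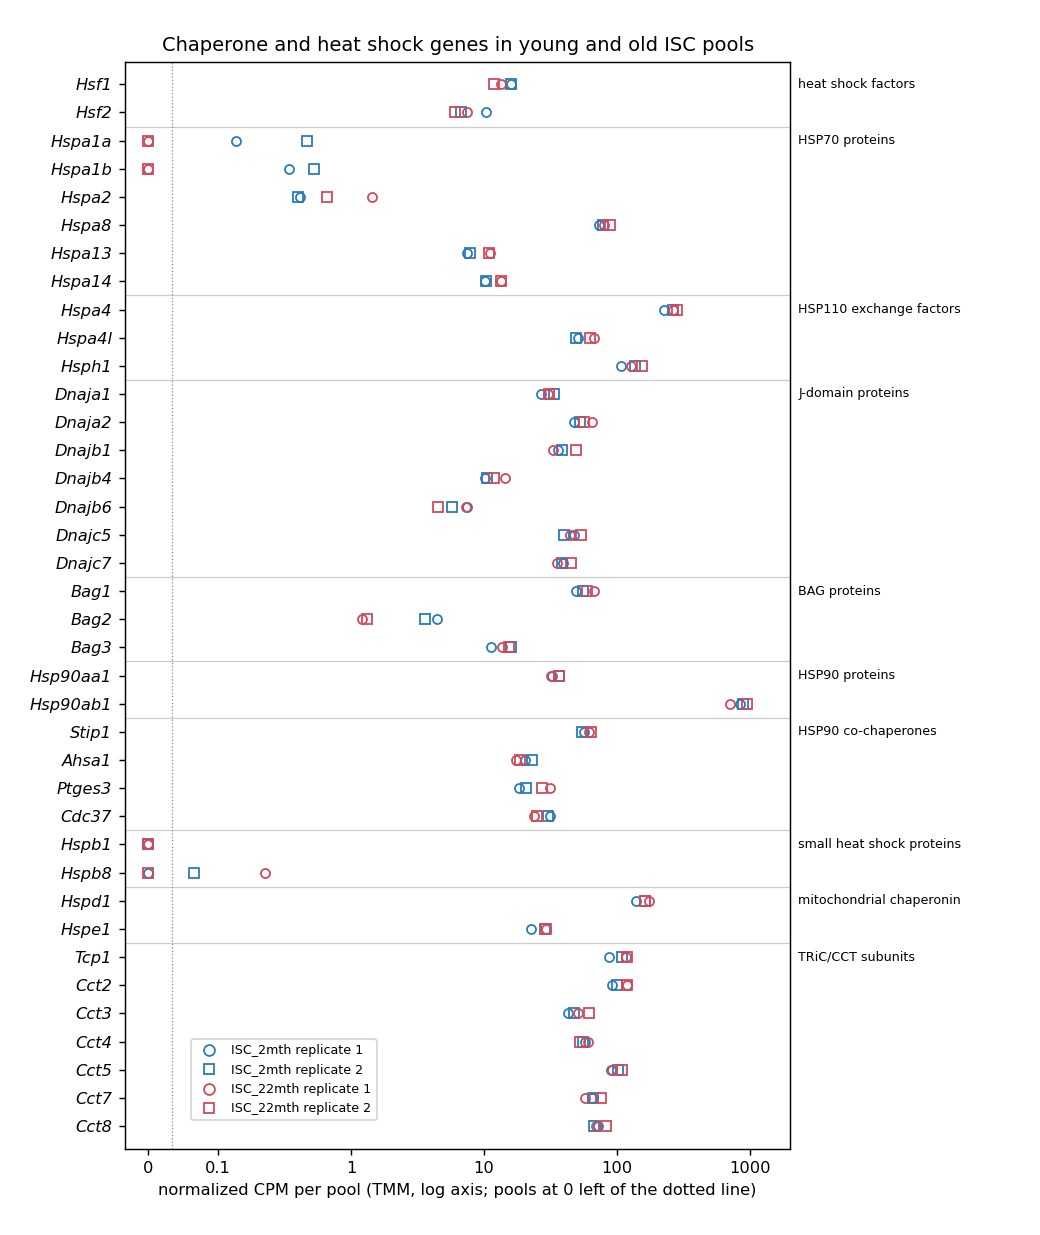
Normalized CPM (log axis, with pools at 0 drawn left of the dotted line) of the 38 genes in each of the 4 pools, by class. Blue marks the young and red the old pools, circles replicate 1 and squares replicate 2. The markers of both ages lie close together in most rows, Bag2 lies lower in both old pools, and Hspa1a and Hspa1b are at 0 in both old pools.

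HSF1, the main activator of heat-induced transcription, and HSF2, its relative with roles in development, were expressed at low levels. Hsf1 was counted 230 and 241 times in the young and 177 and 145 times in the old pools. Its level was 15.9 ± 0.0716 CPM in young and 12.6 ± 1.07 CPM in old ISCs (SD, n = 2 pools each). The old pools were both lower, but the log2 fold change of -0.33 (SE 0.18) did not pass the test (adjusted p = 0.370, edgeR quasi-likelihood test). Hsf2 had 151 and 101 counts in the young and 98 and 74 in the old pools, which overlapped, and its log2 fold change was -0.34 (SE 0.25, adjusted p = 0.534, edgeR).

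Among the HSP70 proteins, the constitutive Hspa8 (HSC70) carried most of the counts, and the heat-inducible Hspa1a and Hspa1b almost none. Hspa8 was at 73.5 and 77.6 CPM in the young and 79.8 and 88.9 CPM in the old pools. Its log2 fold change was 0.16 with a 95% interval from -0.10 to 0.42 (adjusted p = 0.551, edgeR), and 39.4% of its 50-base stretches also occur in other genes. Hspa1a was counted 2 and 7 times in the young pools and Hspa1b 5 and 8 times. Both were at 0 in both old pools. These counts lie near the floor of 3, so no fold change is given, and neither gene passed the test when no filter was applied (adjusted p = 0.365 and 0.190, edgeR). The 2 genes are near copies, and 66.3% and 62.3% of their 50-base stretches also occur in other genes, mainly in each other, so that the split of the counts between them is uncertain, and their total too, since reads that map to several places may have been left out.

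The other HSP70 proteins were measured at low levels, with higher means in the old pools. Hspa13, the microsomal member, had 107 and 119 counts in the young and 146 and 132 counts in the old pools, or 7.63 ± 0.356 and 10.9 ± 0.168 CPM (SD, n = 2 each). The groups did not overlap, but the log2 fold change of 0.52 (SE 0.21) did not pass the test (adjusted p = 0.219, edgeR). Hspa14 encodes an HSP70 that sits with the J-domain protein DNAJC2 on the ribosome, where the pair receives nascent chains. It was at 10.1 and 10.3 CPM in the young and 13.4 and 13.5 CPM in the old pools, a log2 fold change of 0.39 (SE 0.19, adjusted p = 0.310, edgeR). Dnajc2 itself, which is not one of the 38, was counted 611 and 606 times in the young and 763 and 742 times in the old pools and was higher in old ISCs by 0.53 on the log2 scale (SE 0.13, adjusted p = 0.0363, edgeR). This call was lost in DESeq2 (adjusted p = 0.0501), with the upper quartile (0.060, edgeR), with total counts (0.875), after the correction for GC content and length (0.132) and without either young pool (0.158 and 0.178). Hspa2, known for its role in spermatogenesis, had 6 and 6 counts in the young and 19 and 8 in the old pools, and its interval from -0.44 to 3.15 on the log2 scale leaves its direction unresolved.

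The HSP110 proteins are large relatives of HSP70 that exchange its nucleotide and hold unfolded clients. Hspa4 was the most expressed of the 3 per length, with 40.9 and 47.2 CPM per kilobase in the young and 47.4 and 50.7 in the old pools. Its log2 fold change was 0.16 (SE 0.115, adjusted p = 0.529, edgeR). Hspa4l was counted 735 and 746 times in the young and 879 and 769 times in the old pools, or 50.1 ± 0.903 and 64.7 ± 2.50 CPM (SD, n = 2 each). Its log2 fold change of 0.37 (SE 0.13, 95% interval 0.11 to 0.63) had an unadjusted p of 0.00836 in edgeR and an adjusted p of 0.136. Hsph1 (HSP105), a heat-inducible member, was at 107 and 136 CPM in the young and 127 and 153 CPM in the old pools, which overlapped (log2 fold change 0.20, adjusted p = 0.476, edgeR). None of the 3 passed the test.

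None of the 7 J-domain proteins passed the test, with log2 fold changes from -0.15 to 0.34. Dnajb1 (HSP40), the heat-inducible partner of HSP70, was at 36.2 and 38.6 CPM in the young pools, while the old pools lay on either side of these, at 33.2 and 49.0 CPM. Dnaja1 and Dnaja2, the general HSP70 partners of the cytosol, had log2 fold changes of 0.01 and 0.28, and the values of Dnaja2 did not overlap between the ages (47.2 and 52.5 against 64.8 and 55.9 CPM, adjusted p = 0.30, edgeR). Dnajb4 was at 10.2 and 10.6 CPM in the young and 14.5 and 11.9 CPM in the old pools. The remaining members, Dnajb6, Dnajc5 (the cysteine string protein of secretory vesicles) and Dnajc7, overlapped between the ages, as did Dnaja1. Dnaja1 and Dnajb6 share 20.6% and 20.97% of their 50-base stretches with other genes, and the exons of Dnaja1 overlap those of Smu1 on the opposite strand by 608 bases.

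The BAG proteins bind the HSP70 ATPase domain through a shared domain. Their log2 fold changes went in both directions on the TMM scale, while all 3 were below 0 with total counts. Differences between the 3 genes were not tested. Bag2 lies on chromosome 1 (GRCm38, chr1:33745484-33757795, minus strand, 3 exon blocks), and its protein is known to restrain the ubiquitin ligase CHIP on HSP70 clients. It was counted 64 and 54 times in the young and 16 and 16 times in the old pools. In normalized CPM it was at 4.42 and 3.58 in the young and 1.21 and 1.31 in the old pools, so that both old pools lay far below both young pools. The means were 4.00 ± 0.592 and 1.26 ± 0.0704 CPM (SD, n = 2 each), a log2 fold change of -1.66 (SE 0.40, 95% interval -2.50 to -0.81, adjusted p = 0.0344, edgeR). The call rests on few counts. It was lost without ISC_2mth replicate 1 (adjusted p = 0.307, edgeR) and without ISC_2mth replicate 2 (adjusted p = 0.0610, edgeR), as well as in limma voom with quality weights (adjusted p = 0.0784) and in DESeq2 (adjusted p = 0.112). It held in the edgeR likelihood ratio test (adjusted p = 0.00487), and the log2 fold change stayed between -1.81 and -1.5 when any 1 pool was left out. An antisense gene, Gm37905, overlaps 131 bases of its exons and had 0 counts in every pool.

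Bag1, which links HSP70 to the proteasome, was at 48.8 and 55.1 CPM in the young and 67.1 and 58.8 CPM in the old pools. Its log2 fold change was 0.28 (SE 0.13), opposite in sign to that of Bag2, with an adjusted p of 0.294 in edgeR. Bag3, a heat-inducible member that directs clients to autophagy, was at 11.2 and 15.9 CPM in the young and 13.5 and 15.5 CPM in the old pools. The old values of Bag3 lay within the range of the young ones.

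**Figure D2:**
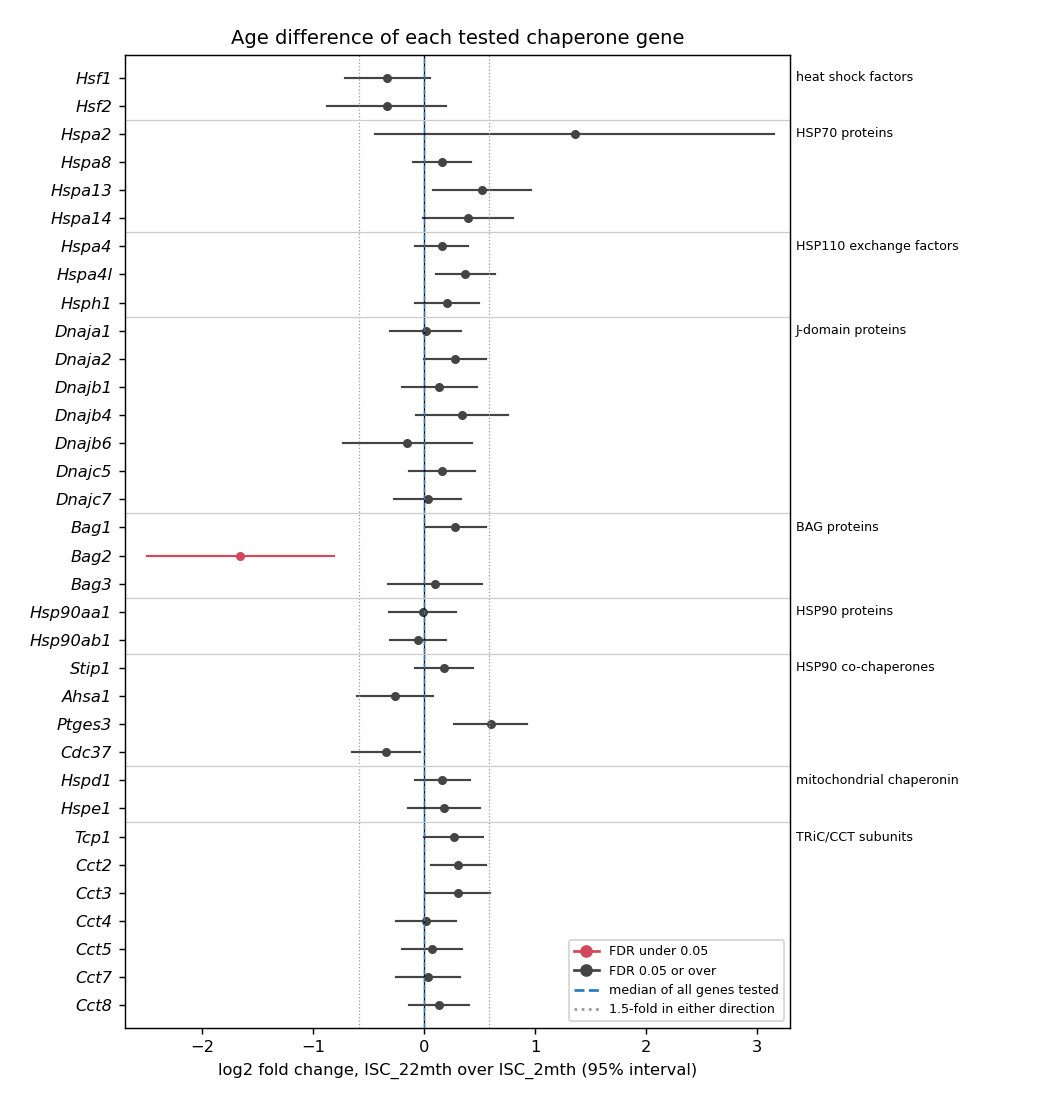
Log2 fold change of ISC_22mth over ISC_2mth (points) with its 95% interval (lines) for the 34 tested members, by class. The dashed line is the median of all genes tested and the dotted lines mark 1.5-fold in either direction. Bag2, in red, is the member past an adjusted p of 0.05, and most other points lie slightly to the right of the median under this TMM scaling, which with total counts would move to the left by about 0.50.

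The HSP90 pair was uneven in level, with age differences near 0 on the TMM scale (both below 0 with total counts, at -0.55 and -0.50 on the log2 scale). Hsp90ab1 encodes the constitutive and Hsp90aa1 the stress-inducible cytosolic HSP90. Hsp90ab1 was at 831 and 877 CPM in the young and 700 and 939 CPM in the old pools, so that the young values lay between the old ones. It alone held between 27.7% and 34.1% of the counts of all 38 genes. Hsp90aa1 was at 32.5 and 36.8 CPM in the young and 31.9 and 36.7 CPM in the old pools. Per kilobase of merged exons, Hsp90ab1 was 28.7 to 33.6 times as high as Hsp90aa1 over the 4 pools. The log2 fold changes were -0.06 for Hsp90ab1 (SE 0.12, 95% interval -0.31 to 0.19, adjusted p = 0.850 in edgeR) and -0.01 for Hsp90aa1 (-0.32 to 0.29), so that on this scale any age difference past 1.5-fold lies outside both intervals. For Hsp90aa1, 47.5% of the 50-base stretches also occur in other genes, and only 3.44% for Hsp90ab1, so that reads of Hsp90aa1 may have been left out or shared.

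The HSP90 co-chaperones had values in both directions. Ptges3 encodes p23, which binds and stabilizes the ATP-bound form of HSP90. It was counted 263 and 311 times in the young and 413 and 334 times in the old pools, or 19.4 ± 1.74 and 29.3 ± 2.76 CPM (SD, n = 2 each). Both old pools were above both young pools. The log2 fold change of 0.60 (SE 0.16, 95% interval 0.27 to 0.93) narrowly missed the threshold (adjusted p = 0.0521, edgeR), which it passed in limma voom with quality weights (adjusted p = 0.0488) and in the edgeR likelihood ratio test (adjusted p = 0.0189), as well as with a replicate block (0.0165), no filter (0.0271) and without ISC_22mth replicate 2 (0.00746). It did not pass in DESeq2 (adjusted p = 0.137), without ISC_2mth replicate 1 (0.361, edgeR) or replicate 2 (0.0723), without ISC_22mth replicate 1 (0.104), or with total counts (log2 fold change 0.11, adjusted p = 0.639). Once GC content and length were corrected for, its log2 fold change was 0.42 (adjusted p = 0.210, edgeR). Of its 50-base stretches, 19.6% occur in other genes as well.

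Cdc37, which brings kinases to HSP90, had lower values in the old pools. It was counted 457 and 454 times in the young and 312 and 304 times in the old pools, or 30.8 ± 1.02 and 24.3 ± 0.910 CPM (SD, n = 2 each), a log2 fold change of -0.35 (SE 0.15, adjusted p = 0.234, edgeR). Ahsa1, the activator of the HSP90 ATPase, was likewise at 20.1 and 23.1 CPM in the young and 17.5 and 18.5 CPM in the old pools (log2 fold change -0.26, adjusted p = 0.445, edgeR). Stip1 (HOP), the adaptor that holds HSP70 and HSP90 together, was at 56.0 and 54.5 CPM in the young and 61.0 and 64.0 CPM in the old pools (log2 fold change 0.18, adjusted p = 0.502, edgeR). For Ptges3, Stip1, Cdc37 and Ahsa1 the pools of both ages did not overlap, as for 47.6% of all genes, and of the 4 none passed the test.

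**Figure D3:**
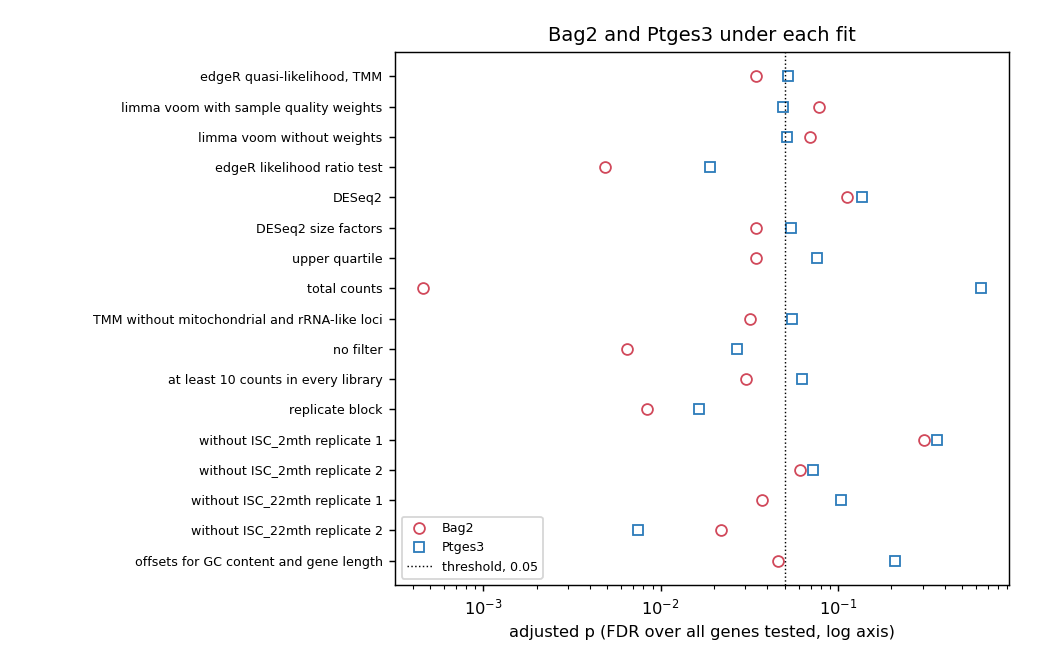
Adjusted p (log axis) of Bag2 (red circles) and Ptges3 (blue squares) in the edgeR quasi-likelihood test and in each alternative, with the threshold of 0.05 dotted. Bag2 lies right of the line with limma voom, with DESeq2 and without either young pool, and Ptges3 left of it in 5 settings, while total counts place the genes farthest apart.

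Small heat shock proteins hold denatured clients without ATP, and both that belong to the set, Hspb1 and Hspb8, were at or near 0. Hspb1 (HSP25) was at 0 in all 4 pools, which allows up to 0.199 to 0.246 CPM. Of its 50-base stretches, 50.1% also occur in other genes, among them the pseudogene Hsp25-ps1, which was counted 1, 5, 5 and 6 times. Hspb8 had 0 and 1 counts in the young and 3 and 0 counts in the old pools. No fold change is given for either. Hspb6, a small heat shock protein outside the set, was detected, with 79 and 81 counts in the young and 49 and 112 counts in the old pools, which overlapped.

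Of the mitochondrial chaperonin, Hspd1 (HSP60) forms the ring and Hspe1 (HSP10) its lid, and of the 38 genes Hspd1 had the highest level per length after Hsp90ab1. Hspd1 was at 138 and 160 CPM in the young and 172 and 162 CPM in the old pools, and Hspe1 at 22.7 and 28.8 against 29.3 and 29.1 CPM. The log2 fold changes were 0.16 (SE 0.12) and 0.18 (SE 0.16, adjusted p = 0.525 and 0.592, edgeR), and both intervals lay within 1.5-fold. The genes share a bidirectional promoter, their exons overlap by 112 bases on opposite strands, and 42.1% and 22.8% of their 50-base stretches also occur in other genes, so that their counts are uncertain.

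The TRiC/CCT subunits form stacked rings in which each subunit takes an equal share. All 7 listed subunits had log2 fold changes above 0, from 0.02 to 0.30 with a median of 0.14, on the TMM scale, while with total counts all 7 were below 0 and with the upper quartile 5 of 7 were above it. After the correction for GC content and length Cct4, Cct7 and Cct8 were below 0, and without ISC_22mth replicate 2 Cct5, Cct7 and Cct8 were, so that 4 of 7 were above it in each. Leaving out any other single pool put 1 subunit below 0, Cct5 without ISC_2mth replicate 1 and Cct4 without ISC_2mth replicate 2 or ISC_22mth replicate 1. None passed the test, and 6 of 7 intervals lay within 1.5-fold. Cct2 was at 91.5 and 99.7 CPM in the young and 119 and 118 CPM in the old pools, with no overlap, and its log2 fold change was 0.30 (SE 0.12, 95% interval 0.06 to 0.55, adjusted p = 0.195, edgeR). Cct3 was at 43.1 and 47.4 CPM in the young and 50.5 and 60.9 CPM in the old pools (log2 fold change 0.30, SE 0.14, adjusted p = 0.274, edgeR). Tcp1 was at 86.9 and 108 CPM in the young and 116 and 118 CPM in the old pools, again with no overlap (log2 fold change 0.26, adjusted p = 0.301, edgeR), although its exons overlap those of Acat3 by 571 bases on the opposite strand. Cct4, Cct5, Cct7 and Cct8 overlapped between the ages, with log2 fold changes of 0.02, 0.07, 0.03 and 0.13.

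Compared per kilobase of merged exons, Hsp90ab1 (279 CPM per kilobase), Hspd1 (59.9), Hspa4 (46.6) and Bag1 (42.6) had the highest levels of the set as means over the 4 pools. Hsp90ab1, Hspd1 and Hspa4 kept these ranks when the length of the principal transcript was used. The equal subunits of TRiC were not equal by this measure. With Cct6a, the subunit outside the list, they spanned 5.27-fold, from 7.92 (Cct3) to 41.8 (Cct2) CPM per kilobase of merged exons. Cct6a had no principal transcript length here. Over the 7 listed subunits, which include both ends of the first span, the span with the principal transcript was 2.41-fold, from 22.6 (Cct4) to 54.5 (Cct2), so that the order within the ring depends on which length is used.

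**Figure D4:**
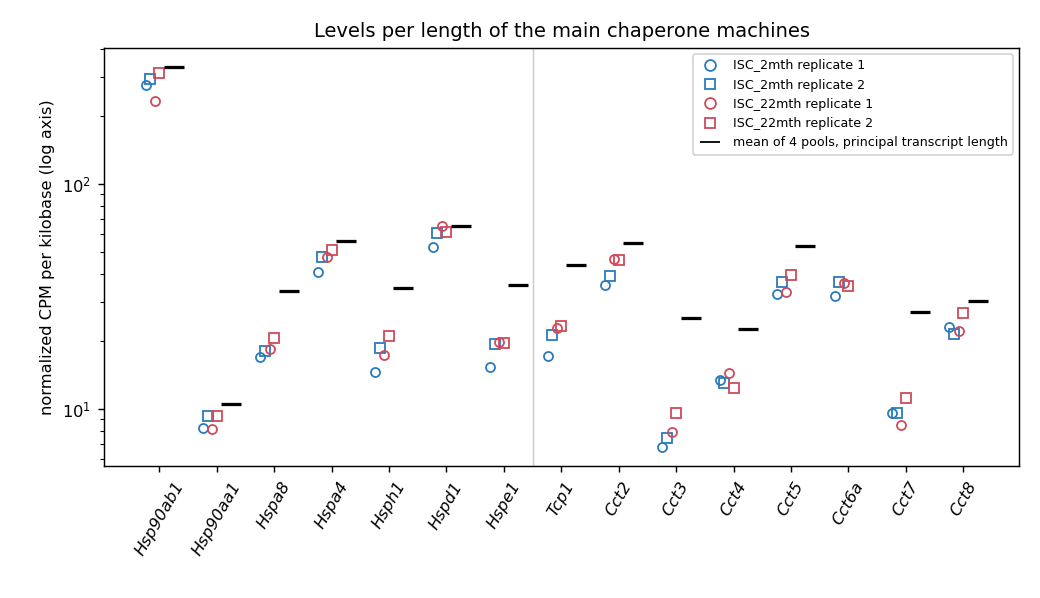
Normalized CPM per kilobase of merged exons (log axis) in each pool for the main chaperone machines, with Cct6a added to the TRiC subunits right of the grey line. Blue marks the young and red the old pools, circles replicate 1 and squares replicate 2, and black bars give the mean of the 4 pools per kilobase of the principal transcript (none for Cct6a). Hsp90ab1 lies about 30 times above Hsp90aa1, and the 7 TRiC subunits with a bar lie closer together by the principal transcript.

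A list of 16 members taken as classic heat-inducible genes was also counted. It held Hspa1a, Hspa1b, Hsp90aa1, Hsph1, Hspb1, Hspb8, Hspd1, Hspe1, Hspa4l, Dnaja1, Dnajb1, Dnajb4, Bag3, Stip1, Ahsa1 and Hspa8, the last described above as constitutive. Of these, 12 were tested, 10 had a log2 fold change above 0 and none passed the test, with values from -0.26 to 0.37 and a median of 0.16, equal to that of all 34 members to 2 decimals. The 4 that were not tested include Hspa1a, Hspa1b and Hspb1, which are among the most strongly heat-induced genes of mouse cells. The immediate early genes, which respond quickly to handling and to mitogens, had log2 fold changes below 0 for 12 of 15 tested. Above 0 were 3 of 15, where 49.5% of all genes were. Atf3 and Nr4a1, among the 12, passed the filter through 1 young pool only, so that their direction is no support. In the test 2 of the 15 passed as lower, where 0.628% of all genes did. Fosb was counted 83 and 91 times in the young and 25 and 26 times in the old pools (log2 fold change -1.55, adjusted p = 0.0151, edgeR), a call lost without either young pool (0.0545 and 0.0593). Egr1 was counted 669 and 518 times in the young and 254 and 327 times in the old pools (log2 fold change -0.81, adjusted p = 0.020, edgeR), a call lost without ISC_2mth replicate 1 (0.1997) and after the correction for GC content and length (0.0672). The part of cell handling in the chaperone values was not tested.

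A further 67 chaperone genes were listed, of which 61 were tested, 32 had a log2 fold change above 0 (49.5% of all genes), the median was 0.04 and 1, Dnajc2, passed the test (2.26% of all genes). Of the 7 organelle HSP70 and HSP90 proteins, 6 had higher means in old ISCs (median 0.26) and none passed the test. They include Hspa9, the mitochondrial HSP70 (log2 fold change 0.29, adjusted p = 0.233, edgeR), and Hspa5 (log2 fold change 0.29, adjusted p = 0.327, edgeR), which encodes the GRP78 by which the cells were sorted. Among 16 other HSP90 co-chaperones, 8 were above 0 and none passed the test. The lowest p-values there belonged to Chordc1 (log2 fold change 0.51, adjusted p = 0.0669, edgeR) and Cacybp (0.58, adjusted p = 0.0669, edgeR). Prefoldin and other partners of TRiC were above 0 in 8 of 11, with Tbca at 0.41 (adjusted p = 0.209, edgeR) and Txndc9 at 0.43 (adjusted p = 0.289, edgeR). Other cytosolic J-domain proteins had values above 0 in 6 of 16, with Dnajc14 at -0.61 (adjusted p = 0.110, edgeR). Dnajc17, below 0, passed the filter through the young pools only, so that its direction is no support. Other HSP70 regulators and small heat shock proteins were above 0 in 4 of 11, with Bag6 at -0.46 (adjusted p = 0.139, edgeR) and Hsbp1, which binds HSF1, at 0.35 (adjusted p = 0.169, edgeR). Hspa1l, Hspa12a and Hspa12b, all below 0, each passed the filter through 1 young pool only. Their direction is therefore no support, in this list or among the 61 genes.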

How the data were processed

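ISC RNA was amplified by SPIA and sequenced single-end with no molecular identifiers. Per the labels, Trimmomatic 0.30 and STAR 2.4.2a (GRCm38) were used, and the authors deposited the raw featureCounts counts per gene over GENCODE exons. The handling of strand and of reads that map to several places is not given in the sources used here, so genes with near copies (11 of 38 members share over 10% of their 50-base stretches with other genes) and overlapping genes are uncertain.

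A gene was tested if any pool had over 5 reads and over 1 CPM of it (13692 of 52459). Ages were compared with edgeR 4.0.16 (R 4.3.3), TMM, glmQLFit and glmQLFTest, no covariate, Benjamini-Hochberg adjustment over all genes kept and a threshold of 0.05. Standard errors came from the log2 fold change and the F value. Scaled by total counts, with mitochondrial genes included, counts of replicate pools differed by more than sampling noise (mean chi-square per gene 9.42 and 7.11). A few genes with very high counts can carry such a mean, so it does not describe a typical gene. With 2 pools per age, glmQLFit drew the spread between pools of each gene toward the trend over all genes. SEs, intervals and p-values therefore rest more on spread borrowed from other genes than on a gene's own pools. The scripts were tested on simulated data. Alternatives were limma 3.58.1 voom with quality weights and the edgeR likelihood ratio test (both named in the study's Methods), voom without weights, DESeq2 1.42.0, other scalings and filters, a replicate block, offsets for GC content and length, and leaving out each pool.

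Loci, lengths and GC content came from GENCODE vM21 (47976 names matched), a later release than the authors' annotation, and promoters from RefSeq (GRCm38.p6). The members and lists were chosen with earlier results of these data known. All 38 members are named. The value in every pool, log2 fold change, SE and adjusted p are given for members past the threshold, the 8 lowest p-values and the 4 highest levels per length. From the other chaperone lists, genes past the threshold and the 2 lowest p-values are named. Marker lists are given by their sums, and their genes past the threshold were named after their values were seen.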

Additional observations from a re-analysis of the deposited data

How the results depend on the processing

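The direction against 0 depended on the scaling: with total counts the members' median log2 fold change was -0.33 (0.16 relative to the median of all genes). With total counts 12 of 34 members were called, all lower, and 21 of the 61 other chaperone genes, where 34% of all genes were called. Members that then changed sign were Hspa8 -0.33, Hspa14 -0.10, Hspa4 -0.33, Hspa4l -0.12, Hsph1 -0.28, Dnaja1 -0.47, Dnaja2 -0.21, Dnajb1 -0.35, Dnajb4 -0.15, Dnajc5 -0.34, Dnajc7 -0.46, Bag1 -0.21, Bag3 -0.38, Stip1 -0.31, Hspd1 -0.33, Hspe1 -0.30, Tcp1 -0.22, Cct2 -0.18, Cct3 -0.19, Cct4 -0.48, Cct5 -0.42, Cct7 -0.46 and Cct8 -0.36, with Hspa9 -0.20, Hspa5 -0.20, Tbca -0.077, Txndc9 -0.056, Hsbp1 -0.14 and Ascl2 -0.16. With the upper quartile Dnaja1 was at -0.028, Dnajc7 -0.013, Cct4 -0.026 and Cct7 -0.011, with at least 10 counts in every library Dnaja1 at -0.010 and Cct4 -0.0064, and with a GC content and length correction Dnaja1 at -0.055, Cct4 -0.071, Cct7 -0.0034 and Cct8 -0.0082. Called members, 1 here, were 0 with unweighted voom and DESeq2 and 2 with the likelihood ratio test and no filter. Other chaperone genes called, 1 here (2.26% of all genes), were 4 with the likelihood ratio test (4.46%) and 3 with no filter (2.24%). They were 0 with DESeq2 (1.44%), the upper quartile (2.12%) and that correction (1.33%). Without 1 pool, called members ranged from 0 to 2 and other chaperone genes from 0 to 7. Log2 fold changes that changed sign without 1 pool ranged from -0.63 to 0.013 (Hsf2), -0.14 to 0.18 (Dnaja1), -0.17 to 0.39 (Dnajb1), -0.55 to 0.15 (Dnajb6), -0.15 to 0.19 (Dnajc7), -0.13 to 0.37 (Bag3), -0.12 to 0.083 (Hsp90aa1), -0.29 to 0.14 (Hsp90ab1), -0.094 to 0.12 (Cct4), -0.055 to 0.18 (Cct5), -0.19 to 0.22 (Cct7) and -0.0026 to 0.26 (Cct8), and Olfm4 reached 0.027. The cause was not tested. Of 543 member values under alternatives, 476 kept direction and side of the threshold. Bag2, Hspa2, Hspa1a, Hspa1b, Hspb1 and Hspb8 had under 100 counts in every pool, which limits their precision.

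The replicate numbers are labels only, and samples of the same number did not deviate together (correlation -0.00015). With a replicate block, 2 members (Bag2 and Ptges3) and 4 other chaperone genes were called, where 4.55% of all genes were.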
